A study of Mus musculus with 6 samples.

Results

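The genes described here are 30 receptors that steer lymphocytes through the body: 9 CC chemokine receptors, 8 receptors of the CXC, CX3C and XC classes, 5 atypical receptors, 3 receptors of other lipid or peptide attractants and 5 receptors of sphingosine 1-phosphate (S1P). They were taken from a list of symbols, matched to Ensembl identifiers of GRCm38 through GENCODE M21, and all 30 were found among 55573 genes listed. Their RNA was counted in Nfkb2-/- and wild-type regulatory T cells (Tregs), with 3 libraries of each genotype. The Nfkb2-/- Tregs lack Nfkb2, the gene of the NF-kB precursor p100 and its product p52, by their label, and the wild-type Tregs carry no named allele. Both came from the spleens of chimeras, animals whose blood cells grew from transplanted marrow, which the labels call bi-parental. The sorted cells stood for 2 h in warm culture medium, with no other treatment, before lysis. The labels do not give the age or sex of donors and hosts, the cells the hosts retained, or whether Tregs of both genotypes came from the same animals. Each genotype has 3 libraries named as biological repeats, and p-values measure only the spread between these libraries.

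Chemokine receptors are G protein-coupled receptors that sense small secreted proteins and pull a cell up their gradient. Inflammatory receptors such as Ccr2 and Cxcr3 guide cells into inflamed tissue, whereas Ccr7 and Cxcr5 guide them to the T cell zone and the B cell follicle of lymphoid organs. Atypical receptors bind chemokines or other attractants without the usual G protein signal. S1P receptors sense a lipid that is plentiful in blood and lymph, and S1pr1 lets T cells leave lymphoid organs. Tregs that have been activated commonly lose receptors of lymphoid recirculation and gain receptors of barrier tissues.

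Library totals ran from 12005273 to 17278521 counts. Levels are in CPM, counts scaled to a common library size and composition, and levels of different genes are compared as CPM per kb of exon. The Treg and CD4 T cell markers, with all 8 tested, summed to 4517, 4304 and 4781 CPM across the Nfkb2-/- libraries, against 3363, 4497 and 5285 CPM across the wild-type libraries. Foxp3, which defines Tregs, averaged 525 ± 67.4 CPM in Nfkb2-/- Tregs, against 505 ± 109 CPM in wild-type Tregs (SD, n = 3 each). Nfkb2 averaged 288 ± 31.3 CPM in Nfkb2-/- Tregs, against 553 ± 6.99 CPM in wild-type Tregs (SD, n = 3 each), a fall with a log2 fold change of -0.94 (edgeR adjusted p = 0.0203), so its RNA was lower but not absent. Wild-type replicate 1 stood apart: across genes its log2 CPM correlated with the other libraries at 0.941 to 0.955, against 0.968 to 0.991 among the other libraries. Xist, the X-silencing transcript of female cells, was at 592 to 883 CPM in Nfkb2-/- and at 1.94 to 16.5 CPM in wild-type libraries, and 4 Y-linked genes summed to 40.05, 138 and 275 CPM across the Nfkb2-/- libraries, against 465, 498 and 477 CPM across the wild-type ones. The Nfkb2-/- libraries thus held Y-linked RNA at unequal levels beside high Xist, and sex and genotype cannot be told apart here. The 14 B cell markers, none of them at 0 in every library, summed to 65.3, 75.7 and 100.5 CPM across the Nfkb2-/- libraries, against 116, 389 and 268 CPM across the wild-type libraries.

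Splenic Tregs of both genotypes carried the same leading receptors. Per kb of exon, Ccr7, the receptor that holds T cells in lymphoid organs, was the most abundant, at 1578 ± 131 CPM per kb in Nfkb2-/- and 1534 ± 382 CPM per kb in wild-type Tregs (SD, n = 3 each). Of all counts over the 30 receptors it made up 61.7% in Nfkb2-/- and 62.5% in wild type. Cxcr4, the receptor of the marrow and stromal chemokine CXCL12, came next, at 413 ± 35.1 CPM per kb in Nfkb2-/- and 369 ± 136 CPM per kb in wild-type Tregs. Ccr8, a receptor of tissue and activated Tregs, held the third place in Nfkb2-/- Tregs, at 220.2 ± 58.4 CPM per kb, and the fourth in wild-type Tregs, at 132 ± 78.2 CPM per kb. S1pr1 held the fourth place in Nfkb2-/- Tregs, at 90.2 ± 20.7 CPM per kb, and the third in wild-type Tregs, at 145 ± 14.5 CPM per kb. In wild type the levels of Ccr8 and S1pr1 per kb differed by less than the spread of Ccr8. Ccr8 was at 49.0 CPM in wild-type replicate 1, against 198 and 217 CPM in replicates 2 and 3. Its place in wild type thus leans on replicate 1. The merged exon length counts every annotated transcript, so a gene with long rare transcripts, such as Ccr9 with 10260 bases, is given too low a level per kb.

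**Figure D1:**
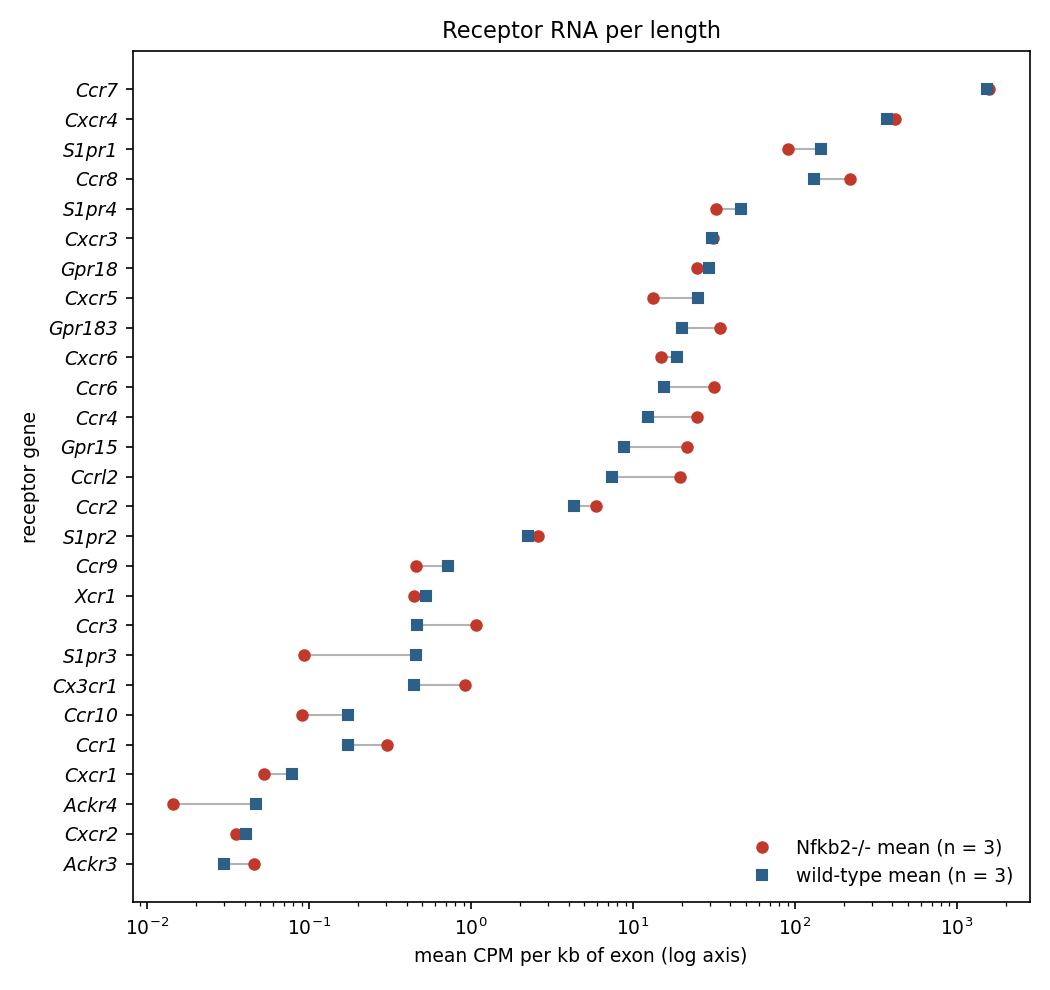
Mean level of each receptor gene in CPM per kb of exon on a log axis, for Nfkb2-/- (red circles) and wild-type (blue squares) Tregs, ordered by the wild-type level; 3 receptors with 0 counts in at least 1 genotype are not drawn. Ccr7 and Cxcr4 lead in both genotypes, followed by Ccr8 in Nfkb2-/- at 220.2 CPM per kb and by S1pr1 in wild type at 145 CPM per kb. In wild type Ccr8, at 132 CPM per kb, differed from S1pr1 by less than its own spread, and replicate 1 was its lowest library.

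Of the 30 receptors, 22 passed the count filter and were tested, and 0 rose and 0 fell in Nfkb2-/- Tregs after adjustment over all 13347 genes tested (quasi-likelihood test of edgeR, p adjusted by the Benjamini-Hochberg method and held to 0.05). Over all genes 1.01% rose and 0.405% fell. At an unadjusted p under 0.05, 7 of the 22 were higher and 4 lower, where 7.25% of all genes tested were higher and 6.35% lower. In 7 of the 22, or 31.8%, every Nfkb2-/- library lay above every wild-type library, as in 10.7% of all genes tested, and in 3, or 13.6%, every Nfkb2-/- library lay below, as in 9.90% of all genes tested. The 7 were Ccr3, Ccr4, Ccr6, Cx3cr1, Ccrl2, Gpr15 and Gpr183, and the 3 were S1pr1, S1pr3 and S1pr4. S1pr3 passed the count filter only through its wild-type libraries, where it was higher, so its place among the 3 leans on that filter. The log2 fold change was above 0 in 14 of the 22, and in 45.0% of all genes tested, and its median was 0.18 over the tested receptors and -0.03 over all genes tested.

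Without wild-type replicate 1, 9 receptors lay above and 5 below without overlap, where 20.2% of all genes tested did the one and 19.7% the other. By edgeR on those 5 libraries, 4 receptors rose (Ccr2, Ccr3, Ccrl2 and Gpr15) and 2 fell (Cxcr5 and S1pr3), where 4.60% of all genes rose and 4.44% fell. A fit that blocks on the replicate number had 2 receptors that rose (Ccr6 and Gpr15) and 0 that fell, where 1.47% of all genes rose and 0.697% fell. DESeq2 called 3 higher (Ccr6, Ccrl2 and Gpr15) and 2 lower (S1pr1 and S1pr3), where 2.33% and 1.37% of all genes were called.

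**Figure D2:**
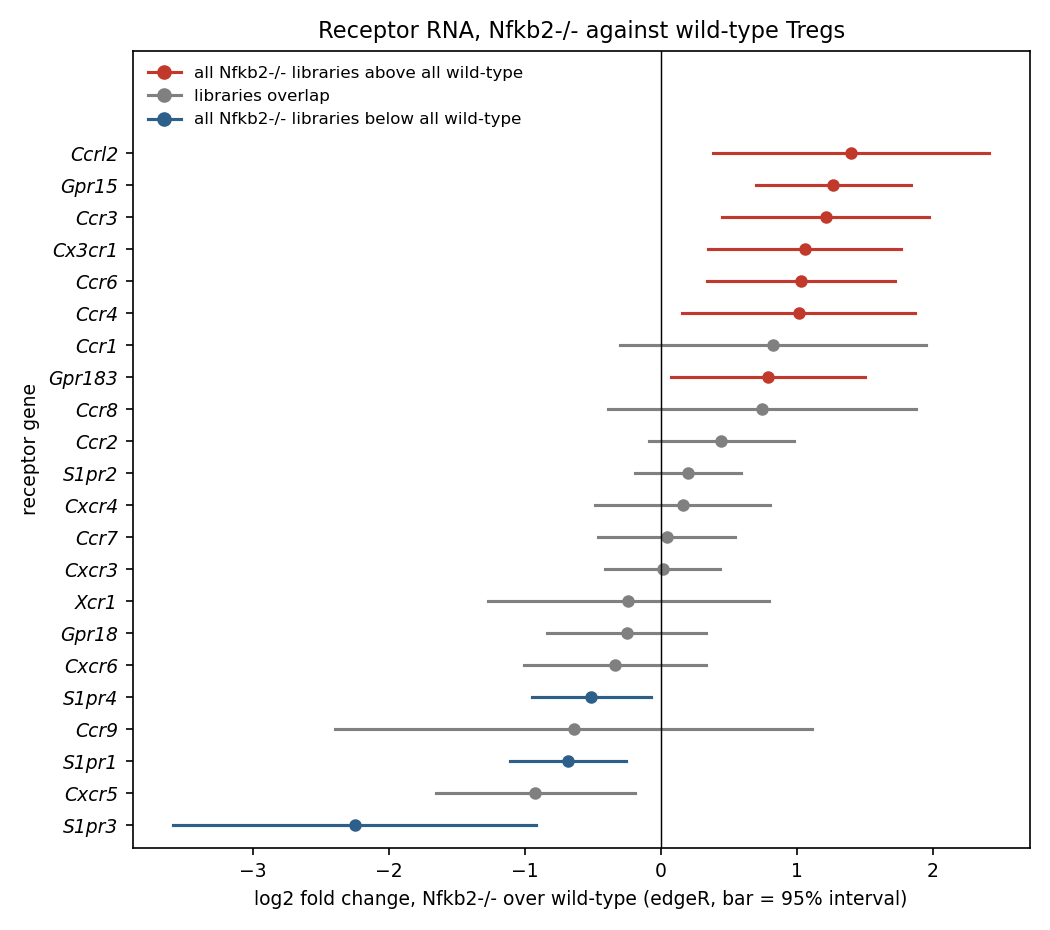
Log2 fold change of the 22 tested receptor genes, Nfkb2-/- over wild-type, with 95% intervals from the edgeR fit that are not adjusted for the number of genes. Red marks the 7 receptors whose 3 Nfkb2-/- libraries all lay above the 3 wild-type libraries, blue the 3 for which all lay below, and grey the 12 whose libraries overlapped.

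Gpr15, which brings Tregs to the large intestine, came closest to the threshold. Its level was 38.0, 32.8 and 34.8 CPM across the Nfkb2-/- libraries, against 19.9, 9.97 and 13.7 CPM across the wild-type libraries. Each Nfkb2-/- library thus held more than any wild-type library, and the highest wild-type value was in replicate 1. The difference came to a log2 fold change of 1.27 (edgeR adjusted p = 0.0558, SE 0.247, and adjusted p = 0.0332 with the replicate block). Gpr15 shares 204 bases of exon with Cpox, a gene of heme synthesis on the other strand with 4203 counts over the 6 libraries, and counts without strand cannot separate the shared stretch. Its promoter is shown because Gpr15 had the smallest p of the receptors; the windows were searched on both strands for the letters GGGNNNNNCC, a loose form of the NF-kB site, with a window that matches on both strands counted once and overlapping windows counted separately. It holds 0 such windows, and the sequence from RefSeq (GRCm38.p6), at chr16:58718823-58719122 on the minus strand, reads from 250 bases before to 50 bases after the start.
Gpr15: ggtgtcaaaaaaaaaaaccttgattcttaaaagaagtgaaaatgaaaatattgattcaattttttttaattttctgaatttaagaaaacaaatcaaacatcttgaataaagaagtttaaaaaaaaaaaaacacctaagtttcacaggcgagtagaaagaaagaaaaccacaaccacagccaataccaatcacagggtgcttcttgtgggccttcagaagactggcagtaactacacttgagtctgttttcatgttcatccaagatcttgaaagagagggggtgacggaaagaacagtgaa

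Ccrl2, an atypical receptor that holds the attractant chemerin at the cell surface, had the largest positive fold change among the receptors. Its level was 55.4, 47.5 and 48.9 CPM across the Nfkb2-/- libraries, against 6.69, 24.7 and 26.7 CPM across the wild-type libraries. The Nfkb2-/- libraries lay close together, and wild-type replicate 1 was far below the other two. Between genotypes this gave a log2 fold change of 1.40 (edgeR adjusted p = 0.203, SE 0.439), and 0.98 without wild-type replicate 1 (edgeR adjusted p = 0.000529). The other 4 atypical receptors were near or at 0. Ackr3 had 6 counts in the Nfkb2-/- libraries together and 4 in the wild-type ones, and Ackr4 had 3 in Nfkb2-/- and 11 in wild type. Ackr1 had 0 counts in Nfkb2-/- and 1 in wild type, and Ackr2 had 0 in all 6 libraries, which allows a level of up to 0.0368 CPM over the series.

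The Ccrl2 promoter is shown with those of Ccr6 and Ccr3 because each holds the consensus NF-kB site and lay above wild type in every Nfkb2-/- library, a choice made after their values were seen. Capitals mark windows of the letters GGGNNNNNCC on either strand, each sequence being from RefSeq (GRCm38.p6) with 250 bases before and 50 after a start. The table has 3 starts for Ccrl2, at chr9:111057469-111057768 on the minus strand for the one shown, 2 for Ccr6, at chr17:8242276-8242575 on the plus strand for the one shown, and 1 for Ccr3, at chr9:124021721-124022020 on the plus strand. The other starts of Ccrl2 and Ccr6, which are not shown, hold 0 windows of either kind.
Ccrl2: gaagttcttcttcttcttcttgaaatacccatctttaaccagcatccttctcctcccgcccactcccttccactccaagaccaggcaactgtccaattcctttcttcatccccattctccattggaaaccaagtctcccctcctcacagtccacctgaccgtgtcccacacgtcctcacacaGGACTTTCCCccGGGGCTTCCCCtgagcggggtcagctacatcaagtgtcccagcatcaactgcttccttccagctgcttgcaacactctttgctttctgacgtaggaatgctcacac
Ccr6: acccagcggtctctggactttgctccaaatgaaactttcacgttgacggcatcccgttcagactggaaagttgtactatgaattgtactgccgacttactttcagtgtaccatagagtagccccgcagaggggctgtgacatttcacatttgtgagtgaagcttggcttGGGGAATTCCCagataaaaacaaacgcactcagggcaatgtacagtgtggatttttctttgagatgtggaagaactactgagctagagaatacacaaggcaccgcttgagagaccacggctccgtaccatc
Ccr3: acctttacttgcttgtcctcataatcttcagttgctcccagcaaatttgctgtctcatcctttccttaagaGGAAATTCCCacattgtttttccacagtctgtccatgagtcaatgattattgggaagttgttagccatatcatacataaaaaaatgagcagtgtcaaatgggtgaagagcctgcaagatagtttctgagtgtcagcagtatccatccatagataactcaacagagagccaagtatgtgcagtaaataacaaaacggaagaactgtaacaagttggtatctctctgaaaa

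The consensus site begins 56 bases before the start in Ccrl2, 80 and 81 bases before it in Ccr6 and 179 bases before it in Ccr3. Promoters of the same length were in the table for 26 of the 30 receptors, all but Ccr7, Ccr10, Cxcr5 and S1pr1. At least 1 promoter held the loose letters in 14 of the 26, or 53.8%, and in 53.5% of all 27025 genes in the table. The consensus NF-kB site was in 5 of the 26, or 19.2%, and in 9.55% of all genes, the other 2 being Ccr1 and Ackr2. A match is a run of letters and not a bound site. Ackr2 had 0 counts in every library, and its window held the site. Among the receptors that lay wholly on one side and are in the table, the windows of Ccr4, Cx3cr1, Gpr15, Gpr183, S1pr3 and S1pr4 held no consensus site.

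Of the 8 CC receptors tested, 3 lay wholly above wild type, where 10.7% of all genes tested did, and the other 5 overlapped. Ccr4, a receptor of skin-homing and activated Tregs that binds CCL17 and CCL22, was at 70.1, 78.6 and 83.4 CPM across the Nfkb2-/- libraries, against 18.5, 61.2 and 35.7 CPM across the wild-type libraries. Its log2 fold change was 1.01 (edgeR adjusted p = 0.279, SE 0.369), and 0.67 without wild-type replicate 1, the lowest library. Ccr6, which follows CCL20 to mucosal tissue, was at 53.0, 81.2 and 87.2 CPM across the Nfkb2-/- libraries, against 22.9, 49.8 and 36.1 CPM across the wild-type libraries. The lowest Nfkb2-/- library and the highest wild-type library were close. Its log2 fold change was 1.03 (edgeR adjusted p = 0.170, SE 0.299, and adjusted p = 0.0350 with the replicate block). B cells also carry Ccr6, and the summed B cell markers above were lower in all 3 Nfkb2-/- libraries than in each of the wild-type ones. Of the single markers, Cd22, Blk and Cd72 overlapped between genotypes. The part of B cells in the Ccr6 values was not tested. In these bulk libraries fewer cells of a type and less RNA per cell cannot be told apart.

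Ccr3, the eotaxin receptor of eosinophils and some T cells, was a low-level transcript. Its level was 3.97, 3.03 and 3.58 CPM across the Nfkb2-/- libraries, against 1.62, 1.90 and 1.01 CPM across the wild-type libraries, with a log2 fold change of 1.21 (edgeR adjusted p = 0.144, SE 0.330). The groups did not overlap, and the counts behind them were 135 in the Nfkb2-/- libraries together and 66 in the wild-type ones. The 6 eosinophil, basophil and mast cell markers, none at 0 in all 6 libraries, summed to 0.563 to 2.98 CPM in Nfkb2-/-, against 1.93 to 2.85 CPM in wild-type libraries. The part of such cells in the Ccr3 values was not tested.

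Other CC receptors overlapped between genotypes. Ccr8 was at 185, 321 and 270.0 CPM across the Nfkb2-/- libraries, against 49.0, 198 and 217 CPM across the wild-type libraries, a log2 fold change of 0.74 (95% interval -0.39 to 1.88, edgeR adjusted p = 0.587). Wild-type replicate 1 was far below the rest, and without it the log2 fold change was 0.32. Ccr2, which draws cells to CCL2 in inflamed tissue, was at 44.35, 34.1 and 41.5 CPM across the Nfkb2-/- libraries, against 38.2, 29.0 and 20.7 CPM across the wild-type libraries. Its log2 fold change was 0.45 (edgeR adjusted p = 0.466, SE 0.230), and it rose without wild-type replicate 1 (log2 fold change 0.68, edgeR adjusted p = 0.0259). Ccr2 also marks monocytes, whose 9 markers, none at 0 in all 6 libraries but Fcgr1 at 0 in all 3 Nfkb2-/- libraries, summed to 26.5 to 46.2 CPM in Nfkb2-/-, against 26.5 to 89.4 CPM in wild-type libraries. The part of monocytes in the Ccr2 values was not tested.

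Ccr7 did not separate the genotypes. It was at 2983, 2962 and 3421 CPM across the Nfkb2-/- libraries, against 2339, 2924 and 3837 CPM across the wild-type libraries, so that the wild-type libraries spanned all Nfkb2-/- values. The log2 fold change was 0.04 (95% interval -0.46 to 0.55, edgeR adjusted p = 0.959). Ccr9, the small-intestine receptor for CCL25, was at 2.23, 6.83 and 5.05 CPM across the Nfkb2-/- libraries, against 1.35, 15.0 and 5.96 CPM across the wild-type libraries. Its relative spread in wild type was the widest of any tested receptor, with a coefficient of variation of 93.5%. The dendritic cell marker Siglech was likewise highest in wild-type replicate 2, at 20.8 CPM. The part of other cells in the Ccr9 values was not tested. Ccr1, a receptor of myeloid and activated T cells, passed the filter with only 33 counts over Nfkb2-/- and 20 over wild type (log2 fold change 0.82, edgeR adjusted p = 0.538). Ccr10, a receptor of skin-homing T cells and plasma cells, had 6 counts over Nfkb2-/- and 11 over wild type and was not tested. The 4 plasma cell markers, none at 0 in all 6 libraries, summed to 11.1 to 18.4 CPM in Nfkb2-/-, against 15.2 to 88.8 CPM in wild-type libraries.

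**Figure D3:**
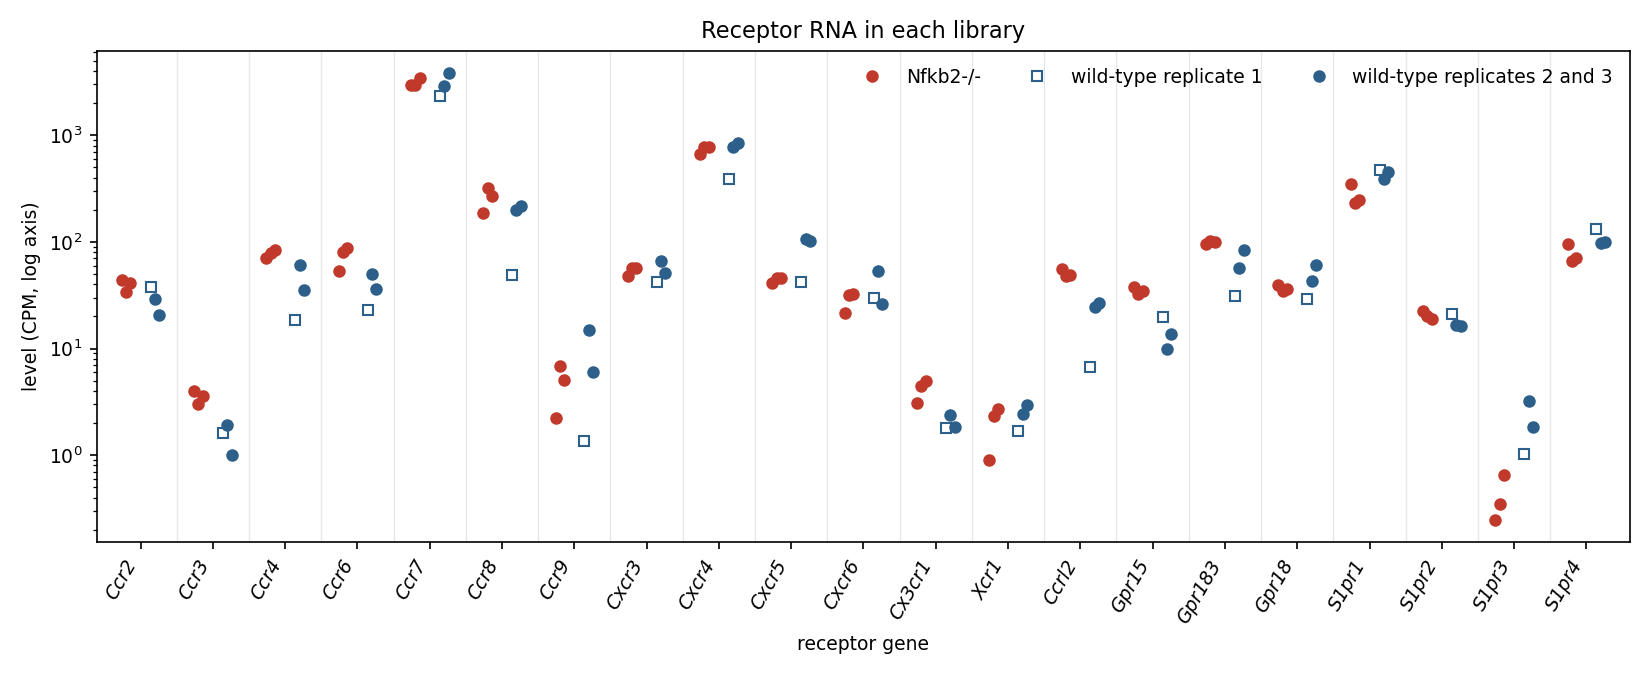
Level in CPM on a log axis of the 21 receptor genes whose mean level reached 1 CPM; each point is 1 library, Nfkb2-/- in red and wild type in blue, with wild-type replicate 1 as an open square. Wild-type replicate 1 is the lowest library for Ccr4, Ccr6, Ccr7, Ccr8, Ccr9, Cxcr3, Cxcr4, Cx3cr1, Ccrl2, Gpr183 and Gpr18. Ccr3, Ccr4, Ccr6, Cx3cr1, Ccrl2, Gpr15 and Gpr183 lie higher in the Nfkb2-/- libraries than in each of the 3 wild-type libraries.

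Of the CXC, CX3C and XC receptors, Cx3cr1 alone lay wholly on one side. Cx3cr1 senses fractalkine and marks monocytes and long-lived effector T cells. It was at 3.06, 4.43 and 4.97 CPM across the Nfkb2-/- libraries, against 1.78, 2.37 and 1.85 CPM across the wild-type libraries, a log2 fold change of 1.06 (edgeR adjusted p = 0.168, SE 0.306). The counts were low, 161 over Nfkb2-/- and 85 over wild type, and 78 bases of its exons overlap the antisense gene Gm33858. The wild-type libraries lay close together, and replicate 1 was among them.

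Cxcr5, which leads cells to CXCL13 in B cell follicles, had lower values in Nfkb2-/- Tregs, except against wild-type replicate 1. It was at 40.8, 46.1 and 45.7 CPM across the Nfkb2-/- libraries, against 42.5, 107 and 102 CPM across the wild-type libraries. The log2 fold change was -0.92 (edgeR adjusted p = 0.247, SE 0.316), and without wild-type replicate 1 it fell, with a log2 fold change of -1.24 (edgeR adjusted p = 3.27e-05). Mature B cells also carry Cxcr5. The sum of the B cell markers, like Cxcr5, was highest in wild-type replicate 2 and next in replicate 3. Wild-type replicate 1 lay above every Nfkb2-/- library for this sum and not for Cxcr5. The markers Cd22, Cd72 and Blk did not follow the sum, as wild-type replicate 1 did not lie above every Nfkb2-/- library for them. In a fit with the B cell marker level as a covariate, the log2 fold change of Cxcr5 was 0.34 (edgeR adjusted p = 0.3615). That level itself separates the genotypes, so the fit cannot apportion Cxcr5 RNA to B cells. The part of B cells in the Cxcr5 values was not tested otherwise. Cxcr5 also shares 110 bases of exon with Bcl9l, a Wnt pathway gene on the other strand with 11168 counts over the 6 libraries.

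Cxcr3, Cxcr4, Cxcr6 and Xcr1 overlapped. Cxcr3, the interferon-chemokine receptor of Th1-like Tregs, was at 47.9, 56.4 and 57.6 CPM across the Nfkb2-/- libraries, against 42.5, 66.5 and 51.7 CPM across the wild-type libraries (log2 fold change 0.01, 95% interval -0.41 to 0.43). Cxcr3 is the one receptor of the 30 on the X chromosome. Cxcr4 was at 673, 785 and 782 CPM across the Nfkb2-/- libraries, against 386, 774 and 842 CPM across the wild-type libraries, with replicate 1 alone low (log2 fold change 0.16, 95% interval -0.48 to 0.80). Cxcr6, the CXCL16 receptor of tissue-resident T cells, was at 21.8, 32.0 and 32.5 CPM across the Nfkb2-/- libraries, against 30.0, 53.0 and 26.0 CPM across the wild-type libraries. The dendritic cell gene Xcr1, which marks cross-presenting cells, was at 0.91, 2.32 and 2.69 CPM across the Nfkb2-/- libraries, against 1.67, 2.45 and 2.94 CPM across the wild-type libraries. The 8 dendritic cell markers, none at 0 in all 6 libraries but Clec10a at 0 in 3 of them, summed to 88.0 to 127 CPM in Nfkb2-/-, against 21.2 to 59.3 CPM in wild-type libraries. Zbtb46 made up 86.8 to 118 CPM in Nfkb2-/-, against 16.6 to 42.1 CPM in wild type. Clec9a was at 0.0827, 0.282 and 0.326 CPM across the Nfkb2-/- libraries, against 0.108, 1.82 and 0.0840 CPM across the wild-type libraries. Siglech, another of these markers, was at 0, 3.59 and 3.75 CPM in Nfkb2-/-, against 0.108, 20.8 and 0.840 CPM in wild type. Both were thus highest in wild-type replicate 2 alone. The neutrophil receptors Cxcr1 and Cxcr2 had 3 and 4 counts in the Nfkb2-/- libraries together and 6 and 5 in the wild-type ones and were not tested.

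Gpr183 and Gpr18, neighbours on chromosome 14, showed different patterns. Gpr183, the oxysterol receptor that places lymphocytes at the edge of the follicle, was at 94.7, 103 and 101 CPM across the Nfkb2-/- libraries, against 31.3, 57.0 and 84.7 CPM across the wild-type libraries. The groups did not overlap, and the Nfkb2-/- values were the tightest of all tested receptors, with a coefficient of variation of 4.19%. The log2 fold change was 0.79 (edgeR adjusted p = 0.318, SE 0.309), and 0.49 without wild-type replicate 1. Gpr18, a lipid receptor of lymphocytes in the gut lining, was at 39.9, 34.9 and 36.4 CPM across the Nfkb2-/- libraries, against 29.0, 42.65 and 61.1 CPM across the wild-type libraries (log2 fold change -0.25, 95% interval -0.83 to 0.33).

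Of the 4 S1P receptors tested, 3 lay wholly below wild type, where 9.90% of all genes tested did, and S1pr3 among them passed the count filter only through its wild-type libraries. S1pr1, the egress receptor, was at 347, 231 and 247 CPM across the Nfkb2-/- libraries, against 475, 391 and 456 CPM across the wild-type libraries. Nfkb2-/- replicate 1 lay nearest to wild type. The log2 fold change was -0.68 (edgeR adjusted p = 0.144, SE 0.185, 95% interval -1.11 to -0.25), and it ran from -0.89 to -0.57 with each library left out in turn. The order of the groups did not rest on wild-type replicate 1, without which the log2 fold change was -0.62 (edgeR adjusted p = 0.0502).

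S1pr4, an S1P receptor of lymphocytes and myeloid cells, gave smaller differences in the same direction. It was at 95.7, 66.1 and 70.4 CPM across the Nfkb2-/- libraries, against 134, 97.6 and 99.2 CPM across the wild-type libraries, so Nfkb2-/- replicate 1 lay just under the lower wild-type libraries. Its log2 fold change was -0.51 (edgeR adjusted p = 0.289, SE 0.190). S1pr3, a receptor of stromal and endothelial cells among others, was at 0.248, 0.352 and 0.651 CPM across the Nfkb2-/- libraries, against 1.02, 3.24 and 1.85 CPM across the wild-type libraries. It passed the count filter through the wild-type libraries, where 82 counts stood against 16 in the Nfkb2-/- libraries, and its log2 fold change was -2.25 (edgeR adjusted p = 0.122, SE 0.577). The order of its wild-type levels, lowest in replicate 1 and highest in replicate 2, was also that of the summed B cell markers. In the fit with the B cell marker level as a covariate, the log2 fold change of S1pr3 was -0.64 (edgeR adjusted p = 0.4785). As with Cxcr5, that fit cannot apportion the RNA to B cells, and their part in the S1pr3 values was not tested otherwise.

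S1pr2 overlapped between genotypes, and S1pr5 had too few counts for a test. S1pr2, which couples to G12 proteins and holds cells in place, was at 22.7, 20.0 and 19.1 CPM across the Nfkb2-/- libraries, against 20.9, 16.6 and 16.1 CPM across the wild-type libraries (log2 fold change 0.20, 95% interval -0.19 to 0.59). S1pr5, the egress receptor of NK cells, had 0 counts in all 3 Nfkb2-/- libraries, against 2, 1 and 2 counts in the wild-type libraries. The 5 NK cell markers, none at 0 in all 6 libraries, summed to 19.7 to 30.2 CPM in Nfkb2-/-, against 8.79 to 15.2 CPM in wild-type libraries. Eomes, which activated T cells also transcribe, made up 15.0 to 21.8 CPM of this in Nfkb2-/-, against 4.26 to 7.60 CPM in wild type, while Ncr1 and Klrb1c were at most 0.489 and 0.733 CPM in Nfkb2-/- libraries and 0.162 and 1.19 CPM in wild-type libraries.

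By position, 15 of the 30 receptors lie on chromosome 9. There Ccr9, Cxcr6, Xcr1, Ccr1, Ccr3 and Ccr2 stand in this order between 123678439 and 124113557 (GRCm38), and among these neighbours Ccr3 alone separated the genotypes. The log2 fold changes of the 6 ran from -0.64 for Ccr9 to 1.21 for Ccr3. Chromosome 19, which carries Nfkb2, holds 0 of the 30.

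The other genes of these pathways gave 1 called gene. Of 33 chemokine ligand genes 11 were tested, and 0 rose or fell in the unblocked fit. There 3 had an unadjusted p under 0.05 and lay wholly above wild type. Of all genes tested, 7.25% were higher at that p, and 10.7% lay wholly above. The same number of ligands, 3, rose in the blocked fit and by DESeq2, where 1.47% and 2.33% of all genes rose. Ccl5, a ligand of Ccr1 and Ccr3, was at 71.7, 86.2 and 87.0 CPM across the Nfkb2-/- libraries, against 8.79, 34.0 and 21.3 CPM across the wild-type libraries (log2 fold change 1.94, SE 0.415, edgeR adjusted p = 0.0753, with the replicate block 0.0354). Cx3cl1, which encodes fractalkine, the ligand of Cx3cr1, was at 11.6, 13.9 and 21.8 CPM across the Nfkb2-/- libraries, against 2.64, 5.46 and 5.71 CPM across the wild-type libraries. Its log2 fold change was 1.79 (edgeR adjusted p = 0.0614, SE 0.362, and adjusted p = 0.0246 with the replicate block). Ligand and receptor of this pair were thus both wholly above wild type. The same held for Ccl5 and Ccr3, but not for the ligands of Ccr6 and Ccr4 that were tested. Of these, Ccl20 for Ccr6 had a log2 fold change of 0.20 and Ccl22 for Ccr4 one of -0.51, and both overlapped between genotypes. These pairs were named after their values were seen. Cxcl10, a Cxcr3 ligand named after its value was seen, had a log2 fold change of 1.59 (edgeR adjusted p = 0.113, with the replicate block 0.0286).

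In the signalling and migration machinery, 1 of 29 tested genes rose and 0 fell, where 1.01% of all genes tested rose and 0.405% fell. The median log2 fold change of the 29 was 0.04. Gna12, the G12 protein that links S1P and other receptors to the cytoskeleton, rose to 80.3, 69.9 and 85.75 CPM in the Nfkb2-/- libraries, against 46.3, 42.2 and 46.8 CPM in the wild-type libraries (log2 fold change 0.80, SE 0.128, edgeR adjusted p = 0.0291). The groups were far apart and wild-type replicate 1 lay within the wild-type range. The call was lost without any Nfkb2-/- library or without wild-type replicates 2 or 3, with edgeR adjusted p from 0.0724 to 0.200, while the log2 fold change ran from 0.74 to 0.88 over all 6 left-out libraries. With the level of Y-linked genes as a covariate it was 0.84 (edgeR adjusted p = 0.459). Of 14 enzymes and transporters of lipid ligands, 6 were tested and 0 rose or fell. At an unadjusted p under 0.05, 1 of the 6 was lower, where 6.35% of all genes tested were. Sgpp1, an S1P phosphatase, had a log2 fold change of -0.38 (edgeR adjusted p = 0.223) and Mfsd2b, an S1P exporter of red cells and platelets, -0.79 (edgeR adjusted p = 0.575).

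Partners of egress and homing gave 0 called genes of 13 tested, with a median log2 fold change of -0.21. Of the 13, 5 had an unadjusted p under 0.05, where 7.25% of all genes tested were higher and 6.35% lower. Of these 5, Itgae and Itga4 were higher and the rest lower, Klf2 and Klf3 among them. Klf2, named after its value was seen, had a log2 fold change of -0.61 (edgeR adjusted p = 0.362), with overlapping libraries. Itgae, the integrin chain CD103 that anchors T cells to epithelium, was at 237, 278 and 303 CPM across the Nfkb2-/- libraries, against 37.9, 127 and 137 CPM across the wild-type libraries (log2 fold change 1.44, SE 0.419, edgeR adjusted p = 0.171). Without wild-type replicate 1, its lowest library, it rose (log2 fold change 1.04, edgeR adjusted p = 0.000324).

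**Figure D4:**
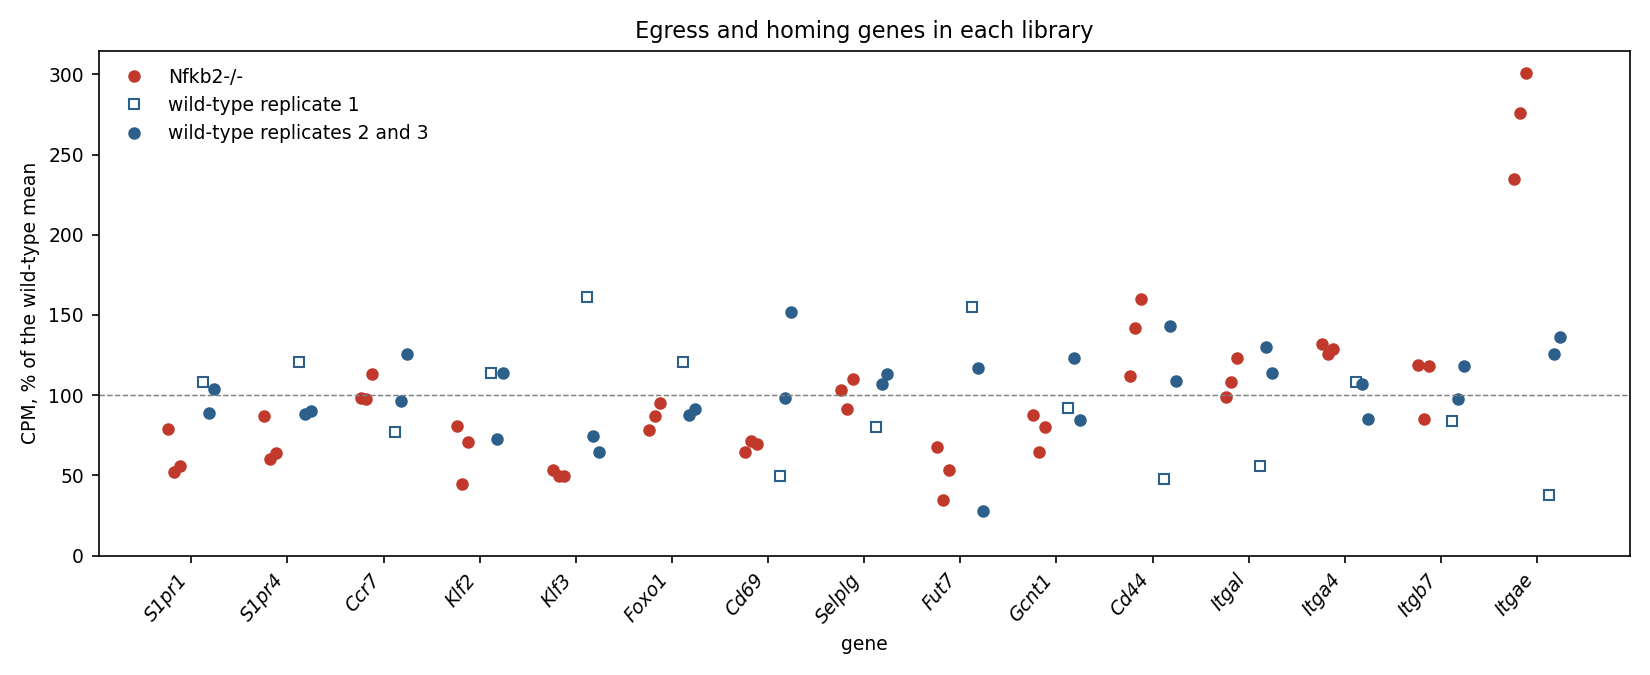
Level of S1pr1, S1pr4, Ccr7 and 12 egress and homing partners in each library, in percent of the wild-type mean; Nfkb2-/- libraries are red, wild-type libraries blue, and wild-type replicate 1 is an open square. S1pr1 lay at 52.3% to 78.7% in Nfkb2-/- and 88.7% to 108% in wild type, Itgae at 235% to 301% in Nfkb2-/- and 37.6% to 136% in wild type, and Ccr7 at 97.6% to 113% in Nfkb2-/- and 77.1% to 126% in wild type.

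Each receptor that lay wholly on one side had 1 sign over the alternatives, which its choice for not overlapping largely fixes, and the overlapping Ccr1, Ccr2 and Ccr8 had 1 sign as well. Log2 fold changes ran over the alternatives from 0.57 to 1.57 for Gpr15, from 1.00 to 1.39 for Ccr3, from 0.91 to 1.56 for Cx3cr1 and from 0.98 to 3.10 for Ccrl2. For the S1P receptors they ran from -1.10 to -0.57 for S1pr1, from -0.98 to -0.35 for S1pr4 and from -2.70 to -0.64 for S1pr3. Ccr4, Ccr6 and Gpr183 were positive in all 15 alternatives, with lowest values of 0.67, 0.78 and 0.49. The level of B cell markers as a covariate moved values most: the log2 fold change was then 0.57 for Gpr15, 2.54 for Ccr4, 2.11 for Ccr6, 2.83 for Ccr8, 2.80 for Ccr9 and 1.73 for Gpr183. That fit called 1320 of all genes higher and 1570 lower.

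**Figure D5:**
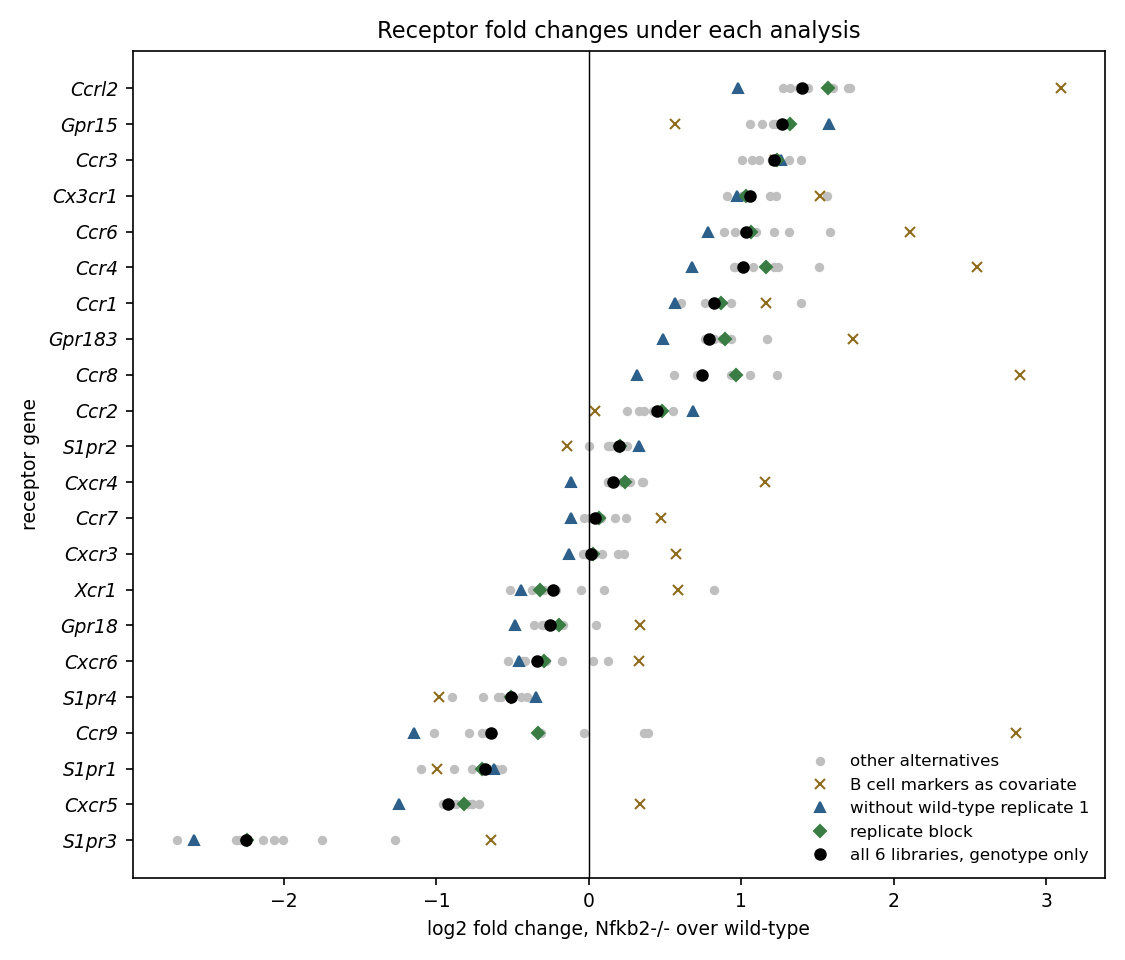
Log2 fold change, Nfkb2-/- over wild-type, of each tested receptor with all 6 libraries (black), with the replicate block (green diamonds), without wild-type replicate 1 (blue triangles), with B cell markers as a covariate (brown crosses) and under the other alternatives (grey). The top 10 receptors stay above 0 and the S1P receptors S1pr1, S1pr3 and S1pr4 below 0 throughout, while Cxcr5 crosses 0 with the B cell covariate, at 0.34.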

How the data were processed

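The authors deposited raw whole-number read counts per Ensembl gene for each library. The tools FastQC, HISAT2, HTSeq and DESeq2 and the build GRCm38 are named in the submitters' processing notes, with no version, and how reads in shared exons were counted is not known here. The kit does not keep strand, per the labels' protocols. Of 55573 identifiers, 55480 matched GENCODE M21. Totals ran from 12005273 to 17278521 counts. The intervals come from the edgeR fit and, like the p-values, measure only the spread between the libraries of each genotype. The upper limit given for Ackr2 covers counting error only.

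The test was that of edgeR 4.0.16 under R 4.3.3 (filterByExpr, TMM, robust quasi-likelihood fit, genotype as the only term), with Benjamini-Hochberg adjustment over all 13347 genes tested and a threshold of 0.05. The SE is the size of the log2 fold change over the root of the F statistic. CPM uses TMM-scaled totals; per kb uses merged exon length. The code was tested on simulated counts. Figures used matplotlib 3.10.9 in Python 3.11.15.

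The receptors, lists and alternatives were chosen with earlier results of these data known. Receptors with a mean of at least 1 CPM are given by library, others by count; from each further list up to 3 called genes with the smallest p are named, or otherwise 2, of which 1 gene is not reported here. There were 4 lists of pathway genes and lists of markers of Treg, B, plasma, myeloid, neutrophil, dendritic, NK, CD8 T, mast and red cells. Alternatives were other scalings and filters, DESeq2 1.42.0, limma-voom (limma 3.58.1), the replicate block, Y-linked and B cell marker levels as covariates, and each library left out.

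Both genotypes carry the replicate numbers 1 to 3 in the labels. Deviations of same-numbered libraries from their genotype means correlated at 0.364, 0.267 and 0.111, all above the limit of 0.1. The libraries were treated as pairs in the blocked fit on that basis. Deviations within a genotype cancel each other, so these correlations are not independent and cannot show what the numbers mark. Differently numbered pairs ran from -0.428 to 0.251, the highest being Nfkb2-/- replicate 3 with wild-type replicate 2.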

Additional observations from a re-analysis of the deposited data

How the results depend on the processing

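With the replicate block, 2 receptors rose and 0 fell, and 3 chemokine ligands rose and 1 egress partner fell; beside these and the values in the report it changed no other call among the receptors and named genes. Of the 22 tested receptors, DESeq2 called 3 higher and 2 lower, the test with no count filter 1 higher and 2 lower, and limma-voom 1 higher. Of all genes, DESeq2 called 399 higher and 235 lower, and the test with no count filter 292 and 174. Limma-voom called 152 higher and 44 lower, and the fit with the Y-linked covariate 6 and 1. The B cell covariate gave 8 receptors higher and 2 lower, but also 1320 and 1570 of all genes, with 3 residual degrees of freedom. Chemokine ligands called higher numbered 2 with no count filter, 3 by DESeq2, 1 in limma-voom and 6 with the B cell covariate, which also called 1 ligand and 1 lipid enzyme lower. Signalling genes called higher were 0 with the Y-linked covariate and 3 with the B cell covariate. For egress partners DESeq2 gave 1 higher and 1 lower and the B cell covariate 3 and 2.

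The median log2 fold change of the receptors, 0.18, was 0.356 with the Y-linked and 0.577 with the B cell covariate. With single libraries left out, it ran from 0.101 to 0.327, called receptors from 0 to 4 higher and from 0 to 2 lower, receptors without overlap from 7 to 9 higher and from 3 to 5 lower, ligands from 0 to 3 higher, signalling genes from 0 to 1 higher and from 0 to 3 lower, and egress partners from 0 to 1 higher and from 0 to 2 lower. Calls over all genes ran with these omissions from 6 to 628 higher and from 1 to 606 lower. Both were most numerous without wild-type replicate 1.

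Signs turned for 9 receptors, none of them called with all 6 libraries and genotype alone. With the Y-linked covariate the log2 fold change was 0.363 for Ccr9, -0.001 for S1pr2, 0.125 for Cxcr6 and 0.82 for Xcr1. With the B cell covariate it was 2.805 for Ccr9, -0.146 for S1pr2, 0.338 for Cxcr5, 0.332 for Cxcr6, 0.336 for Gpr18 and 0.583 for Xcr1. Over the same 6 omissions it ran from -1.15 to 0.386 for Ccr9, -0.116 to 0.244 for Ccr7, -0.115 to 0.358 for Cxcr4, -0.531 to 0.03 for Cxcr6, -0.132 to 0.19 for Cxcr3, -0.484 to 0.049 for Gpr18 and -0.52 to 0.097 for Xcr1. The cause was not tested. RLE and upper-quartile scaling turned 0 signs and moved 0 calls among the receptors. Receptors with few counts, such as S1pr3, Ccr1 and the 8 not tested, are limited by depth.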

Other observations

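Red cell precursor markers, 4 with none at 0 in all 6 libraries, summed to 21.7 to 37.9 CPM in Nfkb2-/-, against 30.8 to 56.2 CPM in wild-type libraries, and the CD8 T cell markers, Cd8a and Cd8b1 with neither at 0, to 10.4 to 13.7 CPM in Nfkb2-/-, against 13.3 to 22.7 CPM in wild-type libraries. The 8 neutrophil markers, none at 0 in all 6 libraries, summed to 17.2 to 37.9 CPM in Nfkb2-/-, against 4.37 to 70.8 CPM in wild-type libraries. Klf3, a factor related to Klf2, was at 105, 97.8 and 98.7 CPM in Nfkb2-/- and 318, 147 and 128 CPM in wild-type libraries, without overlap (log2 fold change -0.98, edgeR adjusted p = 0.225), and it fell without wild-type replicate 1 (log2 fold change -0.46, edgeR adjusted p = 0.0183). Itga4, the integrin chain that pairs with Itgb7 for gut homing, was at 328, 314 and 320.3 CPM in Nfkb2-/- and 268, 267 and 212 CPM in wild-type libraries (log2 fold change 0.36, edgeR adjusted p = 0.286). Both were named after their values were seen.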
